A study of Mus musculus with 16 samples.

Results

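Oas1a, Oas1c, Oas1d, Oas1e, Oas1g and Oas1h are 6 members of a family of mouse 2-5A synthetase genes that stand side by side on chromosome 5. They were taken by name from the RNA table, where all 6 of them were found among 25965 genes, and were followed through 9 RNA columns and 7 methylation libraries. All samples were wild-type mouse oocytes of strain C57BL/6 per the labels (C57BL/6Babr per the study's methods), pooled by diameter, with no treatment in any group. Per the study's methods, RNA-seq was made in duplicate (A and B) from oocytes of 10–30 µm (post-natal days 5–7), 40–45 µm (days 7–12), 50–55 µm (days 9–14) and 60–65 µm (days 13–16), with 1 further column for germinal vesicle (GV) oocytes of day 20. Reduced representation bisulphite sequencing (RRBS) was made in duplicate from the 3 larger size classes, and 1 library of post-bisulphite adapter tagging (PBAT) was made from 60–65 µm oocytes. Age and diameter moved together over these classes and cannot be told apart. Nothing in the labels says that libraries A and B came from separate mice, so p-values measure the spread between these samples, which may be technical.

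A 2-5A synthetase is switched on by double-stranded RNA, the usual sign of a virus, and joins ATP into short adenosine chains. These chains, called 2-5A, act as a signal within the cell, and in most tissues the synthetase genes are induced by interferon. The rodent Oas1 gene has been copied many times over. Oas1a and Oas1g encode active enzymes, whereas Oas1d is known from work on the ovary as an oocyte protein without synthetase activity. Oas1b, which is known for resistance to flaviviruses, is listed as a polymorphic pseudogene in the annotation, because common laboratory strains carry a stop within it.

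In growing oocytes the 6 members fell into 2 sets with nothing between them. Oas1e, Oas1c, Oas1d and Oas1h had at least 48.2 RPKM (reads per kilobase of exon, scaled to the size of the library) in each of the 8 libraries and are called expressed, for which at least 1 RPKM in all 8 was asked. Oas1a and Oas1g had at most 0.167 RPKM and are called silent, for which less than 0.5 RPKM in all 8 was asked. The lowest value of an expressed member was 289.5 times the highest value of a silent one. RPKM is scaled to exon length, so that levels of different genes can be set side by side, but it is a share of a library. In pooled oocytes, fewer cells with a transcript and less of it per cell cannot be told apart, and neither can be separated from a change in total RNA.

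**Figure D1:**
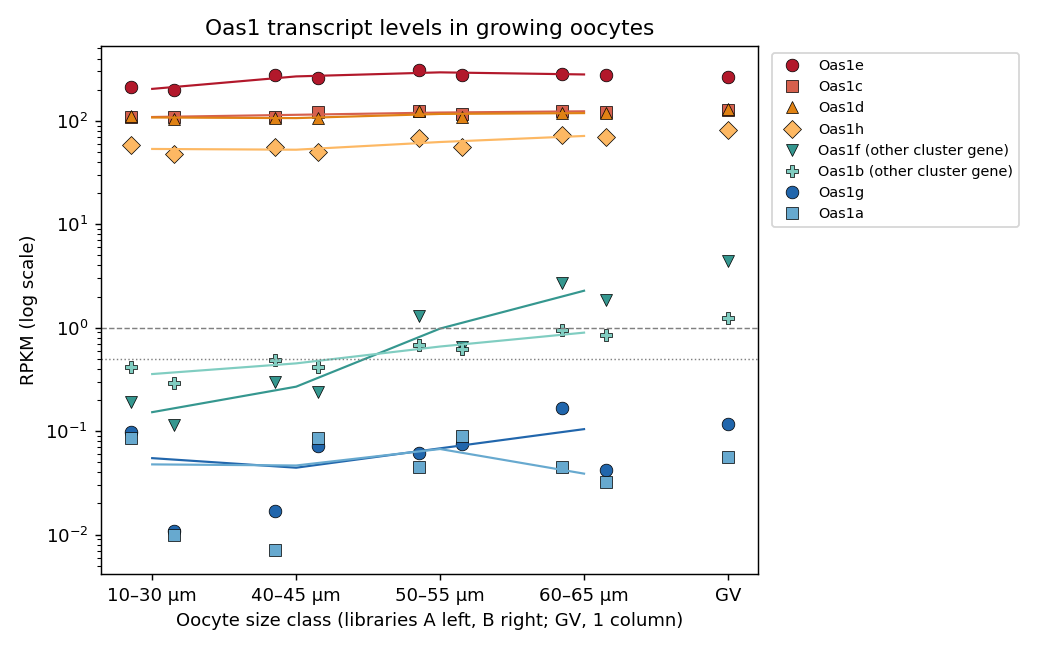
RPKM on a log axis in libraries A and B of each size class and in the GV column, with lines through the class means; dashed and dotted lines mark 1 and 0.5 RPKM. Oas1e, Oas1c, Oas1d and Oas1h lie between 48.2 and 310.1 RPKM and Oas1g and Oas1a at or below 0.167 RPKM. Within each column the neighbouring genes Oas1f and Oas1b lie between these sets, and both are higher in larger oocytes.

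The genes lie on GRCm38 in a run of 191 kb that also holds Oas2, Oas3, Oas1b and Oas1f. From left to right the members are Oas1e (chr5:120786312-120795530, minus strand), Oas1c (chr5:120800194-120812514, minus), Oas1h (chr5:120861421-120873512, plus), Oas1g (chr5:120876142-120887613, minus), Oas1a (chr5:120896256-120907521, minus) and Oas1d (chr5:120914536-120921652, plus). Expressed and silent members are not set apart along the chromosome, since the silent pair stands between the expressed genes Oas1h and Oas1d. Oas1h and Oas1g run towards each other, with 2629 bp between their 3′ ends. The start of Oas1c is 120 bp from that of Oas1b, which runs the other way.

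The sequence in front of the starts differed between the 4 members for which it was at hand. RefSeq entries (GRCm38.p6) for the bases before the start were used for Oas1a, Oas1g, Oas1c and Oas1h among the members and for Oas1f and Oas3 among their neighbours. The expressed members Oas1e and Oas1d had no such entry and were not searched, so only Oas1c and Oas1h stand for the expressed members here. The core of an interferon response element, spelled as GAAA, then 2 bases of any kind, then GAAA again, was searched on both strands of the 250 bases before each start, and 2.98% of 32851 such promoters held it. Oas1a and Oas1g held 2 overlapping matches each, on the strand of the gene and within 20 bases of the start, and Oas3 held 1, while Oas1h and Oas1f held 0. In the window of Oas1c, an expressed member, there were 2 overlapping matches on the opposite strand, 99 to 114 bases before its start and therefore beside the start of Oas1b. Stretches of 30 bases are shown, 5′ to 3′, so that the matches can be compared with the bases just before the starts of Oas1h and Oas1f. Capitals mark the 2 overlapping matches.
Oas1a (minus strand, chr5:120907526-120907555): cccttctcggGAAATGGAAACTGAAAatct
Oas1g (minus strand, chr5:120887614-120887643): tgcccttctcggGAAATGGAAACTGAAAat
Oas1c, read towards Oas1b (plus strand, chr5:120812606-120812635): ttcccggGAAATGGAAACTGAAAgtcccat
Oas1h (plus strand, chr5:120861392-120861421): gatataagaggcagctgactcctgaggcaa
Oas1f (plus strand, chr5:120847337-120847366): gacaactggcttccagaggcagtgctacag

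The same 16 letters stood in all 3 matching stretches. Over the whole 250 bases Oas1a and Oas1g were 82.8% identical and shared an unbroken run of 56 bases. Oas1h and Oas1f were 73.5% identical with each other and 46.2% to 50.9% identical with Oas1a and Oas1g. Of other motifs, the homeobox site TAATTA was found on neither strand of the 6 windows, against 4.84% of all promoters. An E-box (CANNTG on either strand) is held by 66.2% of all promoters, and Oas1h and Oas1f held 2 each against 0 in Oas1a, Oas1g and Oas1c. Among these 6 windows a GC box, searched as GGGCGG on both strands, was found in Oas1h only, and 32.7% of all promoters hold one. The TATA box, searched as TATAAA, was found in 0 of the 6 and in 12.4% of all promoters. A further homeobox site, TAATTG, was also found in 0 of the 6, against 7.17% of promoters. The expressed and the silent gene that face each other are shown in full for their 250 bases before the start, with the GC box of Oas1h and the response element of Oas1g in capitals.
Oas1h (plus strand, chr5:120861172-120861421): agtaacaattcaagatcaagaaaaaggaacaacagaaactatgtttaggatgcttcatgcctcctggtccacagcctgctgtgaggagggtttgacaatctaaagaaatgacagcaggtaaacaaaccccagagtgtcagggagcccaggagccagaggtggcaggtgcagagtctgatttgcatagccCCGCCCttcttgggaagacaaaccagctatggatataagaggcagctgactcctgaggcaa
Oas1g (minus strand, chr5:120887614-120887863): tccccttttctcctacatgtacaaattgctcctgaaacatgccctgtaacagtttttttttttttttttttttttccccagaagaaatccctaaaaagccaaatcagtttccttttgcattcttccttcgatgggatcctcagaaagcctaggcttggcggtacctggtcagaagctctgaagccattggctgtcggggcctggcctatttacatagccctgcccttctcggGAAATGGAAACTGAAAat

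These matches are letters in a window and say nothing on whether a factor was bound. The coding sequences of Oas1a and Oas1g were 96.7% identical, whereas those of the 4 expressed members were 72.8% to 85.3% identical with each other, and identity between an expressed and a silent member was 70.4% to 74.1%. Oas1e and Oas1d, which lie at opposite ends of the run of Oas1 genes, were the pair of expressed members with the highest identity (85.3%).

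Such likeness could move reads between genes, since the alignment kept 1 place per read. Reads were 100 bases long. For the 4 expressed members, 0% of the 100-base windows of their GENCODE M21 transcripts occurred in a transcript of another gene. With windows of 50 bases the share was 10.7% for Oas1e, 9.82% for Oas1c, 6.24% for Oas1d and 0.47% for Oas1h. Oas1a shared 40.9% of its 100-base windows, and Oas1g 31.2%, each with the other, and their single values are therefore uncertain. The sum of both was 0.0208 to 0.212 RPKM, and it depends on that split only through the exon lengths of 1885 bp (Oas1a) and 2340 bp (Oas1g). With windows of 50 bases the shares were 57.6% for Oas1a and 45.7% for Oas1g, with each other or with Oas1b. Whether reads of Oas1b entered this sum was not tested.

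Oas1e was the most abundant member in every library. It had 210.5 and 196.4 RPKM at 10–30 µm (libraries A and B), 276.2 and 261.0 at 40–45 µm, 310.1 and 277.8 at 50–55 µm and 281.5 and 279.5 at 60–65 µm, and 264.3 in the GV column. Both 10–30 µm libraries were below all 6 libraries of larger oocytes, both 40–45 µm libraries were below those of 50–55 and 60–65 µm, and the 2 largest classes overlapped. Among all genes of the table it ranked between the 18th and the 32nd.

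Oas1c and Oas1d were close to each other. Oas1c had 108.6 and 109.0 RPKM at 10–30 µm, 107.7 and 120.8 at 40–45 µm, 124.9 and 115.5 at 50–55 µm, 124.8 and 122.2 at 60–65 µm and 125.8 in GV oocytes. Oas1d had 112.4 and 103.0, 107.1 and 105.3, 123.3 and 109.8, 119.3 and 118.1 RPKM in the same order, and 131.2 in GV oocytes. Neighbouring size classes overlapped in Oas1c, and in Oas1d they overlapped except for 40–45 and 50–55 µm. The highest of the 8 libraries was 1.16 (Oas1c) and 1.2 (Oas1d) times the lowest. The ratio of Oas1c to Oas1d lay between 0.966 and 1.15 in the 8 libraries, and these neighbours in the order of levels did not differ beyond their spread.

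Oas1h was the lowest of the expressed members. Its values were 58.6 and 48.2 RPKM at 10–30 µm, 55.7 and 49.4 at 40–45 µm, 68.4 and 56.3 at 50–55 µm, 73.5 and 69.2 at 60–65 µm and 81.1 in GV oocytes. Both 60–65 µm libraries were above every library of the smaller oocytes, and library A was above library B in each class.

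Together the 4 expressed members made up 456.6 to 626.7 RPKM, or 0.49% to 0.667% of the summed RPKM of a library. Oas1e alone gave 43% to 50.5% of that sum. The order of levels was Oas1e first, then Oas1c and Oas1d, then Oas1h, in all 9 columns apart from the order of Oas1c and Oas1d. Oas1e was 1.80 to 2.56 times Oas1c, and Oas1d was 1.62 to 2.13 times Oas1h. GV values were 0.942 (Oas1e), 1.02 (Oas1c), 1.11 (Oas1d) and 1.14 (Oas1h) times the mean of the 60–65 µm class, with no replicate of the GV column and no test.

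The silent members were near the limit of detection. RPKM of Oas1a was multiplied by its exon length and by a library total of counted reads, which was estimated from single-exon genes. These totals were 99368515 to 198296281 per column. The products were whole numbers of counted reads in all 9 columns (within 0.01), namely 16 and 3 at 10–30 µm, 2 and 31 at 40–45 µm, 10 and 26 at 50–55 µm, 9 and 11 at 60–65 µm and 21 in GV oocytes. As RPKM these were 0.0854 and 0.010, 0.00706 and 0.0861, 0.0451 and 0.0892, 0.0454 and 0.0323, and 0.0562. Oas1g had 23 and 4, 6 and 32, 17 and 27, 41 and 18, and 54 counted reads in the same order, or between 0.0108 and 0.167 RPKM. Libraries A and B of a class differed as widely as the classes did, and the classes overlapped in both genes. For comparison, Oas1e had 37668 to 94378 counted reads. How mates and spliced parts of reads were counted is not stated, so these are not numbers of molecules.

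The first question put to the expressed members was whether their share of the transcriptome changed as oocytes grew. Between 10–30 and 60–65 µm, Oas1e rose 1.40-fold and Oas1h rose 1.36-fold, while Oas1c and Oas1d did not pass the test. All tests were made with limma on log2(RPKM + 0.1) over 10518 genes with Benjamini-Hochberg adjustment. For Oas1e the log2 change was 0.49 (SE 0.11, adjusted p = 0.00502), and for Oas1h it was 0.44 (SE 0.14, adjusted p = 0.0258). The log2 difference was 0.20 for Oas1c (95% interval -0.02 to 0.43, adjusted p = 0.096) and 0.16 for Oas1d (95% interval -0.08 to 0.41, adjusted p = 0.208). Both intervals include 0, and their upper limits lie below the estimate for Oas1e but inside its 95% interval of 0.23 to 0.74.

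In this comparison 63.1% of all genes tested were called, and 32.3% were called higher, so that 2 of the 4 tested members is a share near the background. The median log2 change of the 4 was 0.32, against 0.02 for all genes tested. Oas1a and Oas1g did not pass the filter of 0.5 RPKM in 2 libraries and were not tested. Without this filter Oas1h lost its call (adjusted p = 0.0514 with limma) and Oas1e kept it (adjusted p = 0.0409). Leaving out 10–30 µm B, 60–65 µm A or 60–65 µm B in turn took the call from Oas1h (log2 differences of 0.28, 0.42 and 0.48), whereas Oas1e kept it each time.

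Taken step by step, 1 of the 4 tested members changed. From 10–30 to 40–45 µm Oas1e rose by 0.52 on the log2 scale (SE 0.11, adjusted p = 0.0128), where 23.6% of all genes were called. Without library A of the 40–45 µm class this call was lost. It was also lost without the filter on low values (adjusted p = 0.0781 with limma). The other 3 had log2 differences of 0.10 to 0.18 and did not pass the test. From 40–45 to 50–55 µm 0 of the 4 were called, against 9.47% of all genes, with log2 differences of 0.03 (Oas1c) to 0.20 (Oas1h). Between 50–55 and 60–65 µm 0 of the 4 and 0% of all genes were called with limma, although 1459 of the 10518 genes had an unadjusted p under 0.05, and the log2 differences of the members were -0.11 (Oas1e) to 0.15 (Oas1h).

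The ratios between members were uneven over growth. Oas1e over Oas1d was 1.87 and 1.91 at 10–30 µm and 2.36 to 2.58 in the 6 libraries of larger oocytes, with 2.01 in the GV column. The smallest class did not overlap with the larger ones. Oas1d over Oas1h was 1.92 and 2.13 at 10–30 µm and 1.62 and 1.71 at 60–65 µm. The ratios are given as values and were not tested.

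**Figure D2:**
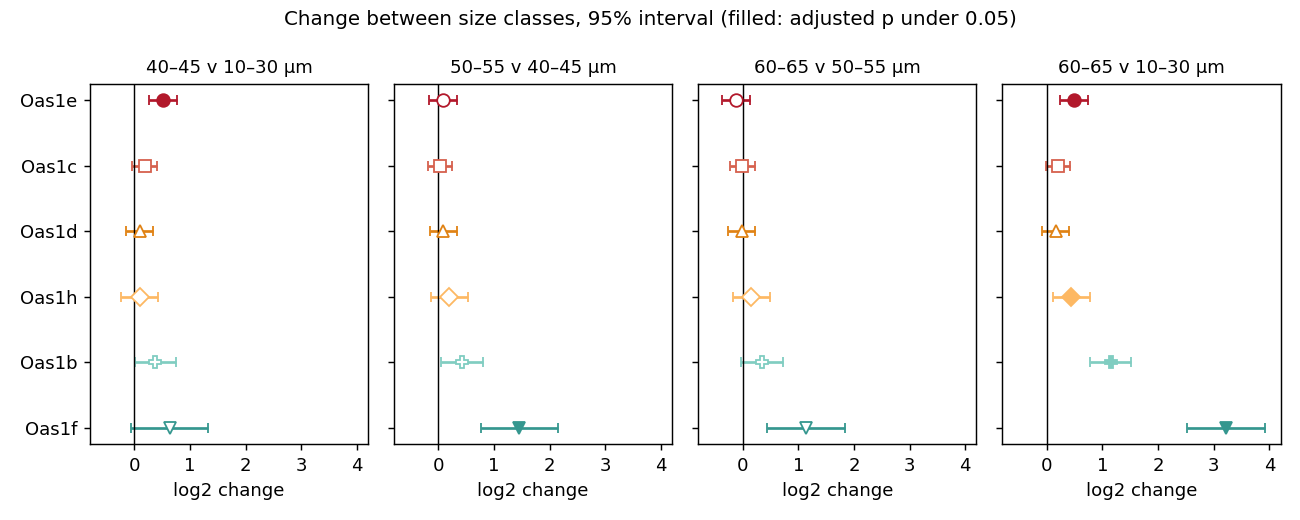
Log2 change of the 4 tested members and of Oas1b and Oas1f in 4 comparisons of size classes, with 95% intervals from limma and filled symbols where the adjusted p was under 0.05. Oas1e is filled in the first step (0.52) and Oas1e (0.49) and Oas1h (0.44) over the whole range, whereas Oas1f reaches 3.23.

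The 2 further Oas1 genes of the run were lower, and both rose with size. Oas1f had 0.190 and 0.115 RPKM at 10–30 µm, 0.301 and 0.237 at 40–45 µm, 1.31 and 0.651 at 50–55 µm, 2.71 and 1.84 at 60–65 µm and 4.38 in GV oocytes. It rose 9.35-fold from the smallest to the largest class (log2 change 3.23, SE 0.30, adjusted p = 4.97e-05). Oas1b had 0.417 and 0.295 RPKM at 10–30 µm and 0.95 and 0.842 at 60–65 µm, a rise of 1.15 on the log2 scale (SE 0.16, adjusted p = 0.000423). At these levels the size depends on the pseudocount: with 1 and 0.01 in place of 0.1, the log2 change was 1.48 and 3.845 for Oas1f and 0.48 and 1.34 for Oas1b, and both stayed called.

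Genes whose course was most like that of a member were sought among the 1849 genes with a mean of at least 10 RPKM, by Pearson's r of log2(RPKM + 0.1) over the 8 libraries. For Oas1e they were H1foo, the linker histone of oocytes (r = 0.981), and the F-box genes Fbxw26 (0.981) and Fbxw18 (0.980). For Oas1h they were the histone gene Hist1h2bp (0.976), the kinetochore gene Dsn1 (0.969) and the spindle gene Ckap2 (0.969). Ckap2 (0.949), Dsn1 (0.932) and the nucleolar GTPase gene Gnl2 (0.927) came first for Oas1d, and Prep (0.939), Pold3 (0.932) and 2700062C07Rik (0.926) for Oas1c. Between members r was 0.953 for Oas1d with Oas1h and 0.61 to 0.70 for the other pairs. All these values share the same 8 libraries and size classes.

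Other genes of the 2-5A pathway were far below the expressed members. Of 5 pathway genes 3 were tested, and all 3 were called between 10–30 and 60–65 µm, where 63.1% of all genes were called. Pde12, which degrades 2-5A, rose from 1.47 and 1.46 to 2.13 and 2.11 RPKM (log2 change 0.53, adjusted p = 0.00247). Oasl1, a synthetase-like gene, rose by 0.75 on the log2 scale with at most 0.656 RPKM (adjusted p = 0.00385). Abce1, a gene of ribosome recycling, fell by 0.73 on the log2 scale, from 6.38 in both libraries to 3.66 and 3.82 RPKM (adjusted p = 0.000183).

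Of 30 listed genes of RNA sensing and interferon response, 10 were tested, of which 5 were called higher and 2 lower, with a median log2 change of 0.35. These 7 of 10 are close to the background of 63.1% called in that comparison. Irf1, an interferon regulatory factor, was the highest of them at 13.4 to 21.0 RPKM and rose by 0.64 on the log2 scale. Mavs, the adaptor of RNA sensors, rose by 1.13, Adar, an RNA editing enzyme, by 0.89, Stat2 by 0.84 and Bst2 by 0.58. Ifngr2, a subunit of the interferon gamma receptor, fell by 2.27. The receptor subunit Ifnar1 had 3.26 to 3.80 RPKM, while its partner Ifnar2 had at most 0.0121. The interferon-induced genes Isg15, Ifit3, Rsad2, Ifi44 and Zbp1 were listed at 0 in all 9 columns. Of others on the list, not tested, Ifit1 had 0.0924 to 0.235 RPKM, Ddx58 0.153 to 0.549, Tlr3 0.00229 to 0.0792 and Mx1 0 to 0.0783 in the 8 libraries, and in each of these 4 genes both 60–65 µm libraries were above both 10–30 µm libraries. The same held for Dhx58 and Eif2ak2. Ifngr1 and Irf9, also not tested, went the other way. Ifngr1 had 0.325 and 0.305 RPKM at 10–30 µm and 0.0267 and 0.0252 at 60–65 µm. Irf9 had 0.0448 and 0.0572 RPKM at 10–30 µm and 0.0336 and 0.0308 at 60–65 µm.

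Markers of oocytes were abundant in all libraries, with the 8 genes of that list summing to 2350 to 3240 RPKM. The 5 immune markers found in the table summed to 0.234 to 0.347 RPKM, with Cd3e at 0 in all 8 libraries and Ptprc at or below 0.00823. The 8 granulosa markers summed to 1.99 and 2.42 RPKM at 10–30 µm and to 7.07 and 7.64 at 60–65 µm, and the 3 endothelial markers to 0.544 and 0.582 and to 4.23 and 4.74, nearly all of it Pecam1. The 5 stroma markers had sums of 1.35 to 1.84 RPKM at 10–30 µm, 0.325 to 0.973 in the middle classes and 0.601 to 0.631 at 60–65 µm, most of it at 10–30 µm from the collagen gene Col1a1. Col1a1, the 1 of them that was tested, fell by 1.81 on the log2 scale (adjusted p = 0.0060 with limma). The steroid synthesis genes Star and Cyp17a1 of that list had 0.0217 and 0.0384, and 0 and 0 RPKM, at 10–30 µm and 0.0648 and 0.107, and 0.0132 and 0.107 RPKM, at 60–65 µm. Each of these sums was below 8 RPKM, and over this comparison the granulosa and endothelial sums were higher, and the stroma sum, through Col1a1, lower, where Oas1e and Oas1h rose. Their part in it was not tested.

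Methylation was next compared between expressed and silent members, since in oocytes methylation is known to be laid down mainly over transcribed gene bodies. The single PBAT library of 60–65 µm oocytes gave the percent of methylated calls at CpG cytosines, and a gene was given the mean over its positions with at least 5 reads. The run of genes held 3062 covered cytosines and 11136 calls, with a median of 3 calls per cytosine. Intervals are 95% Wilson intervals of pooled calls and cover counting error only, and there is no replicate.

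All 4 expressed members carried methylation, and the 2 silent members differed from each other. Oas1d had 43.4% over 46 positions and Oas1e 43.0% over 36, Oas1h had 33.3% over 43 and Oas1c 22.5% over 67. Of the silent members, Oas1a had 8.24% over 18 positions and Oas1g had 31.1% over 29. From the calls pooled at these positions, the intervals were 39.4% to 49.7% for Oas1d, 40.6% to 51.6% for Oas1e, 26.8% to 36.9% for Oas1h, 19.5% to 26.5% for Oas1c, 3.95% to 14.4% for Oas1a and 26.3% to 39.0% for Oas1g. Oas1a was therefore below every expressed member, whereas the interval of Oas1g overlapped that of Oas1h and, narrowly, that of Oas1c. Pooled over all covered cytosines, Oas1g (30.1%, interval 25.6% to 35.1%) was above Oas1c (20.4%, interval 17.9% to 23.3%).

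Genes of like transcript level differed in methylation. Oas1c and Oas1d, with almost the same RPKM, had intervals that did not overlap. Across all genes of at least 4 kb with 10 or more positions, body methylation had a median of 32.4% for 6678 expressed genes (quartiles 19.9% and 44.2%) and of 8.28% for 8601 silent genes (quartiles 5.72% and 16.8%). The expressed members stood above 73.4% (Oas1d), 72.6% (Oas1e), 52.0% (Oas1h) and 29.4% (Oas1c) of the other expressed genes. Oas1g stood above 88.3% of the other silent genes and Oas1a above 49.8%. Among the 136 genes with a mean of at least 50 RPKM, the median was lower, at 16.6%, and the expressed members were above 97.8% (Oas1d), 96.3% (Oas1e), 87.4% (Oas1h) and 62.2% (Oas1c) of the others.

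**Figure D3:**
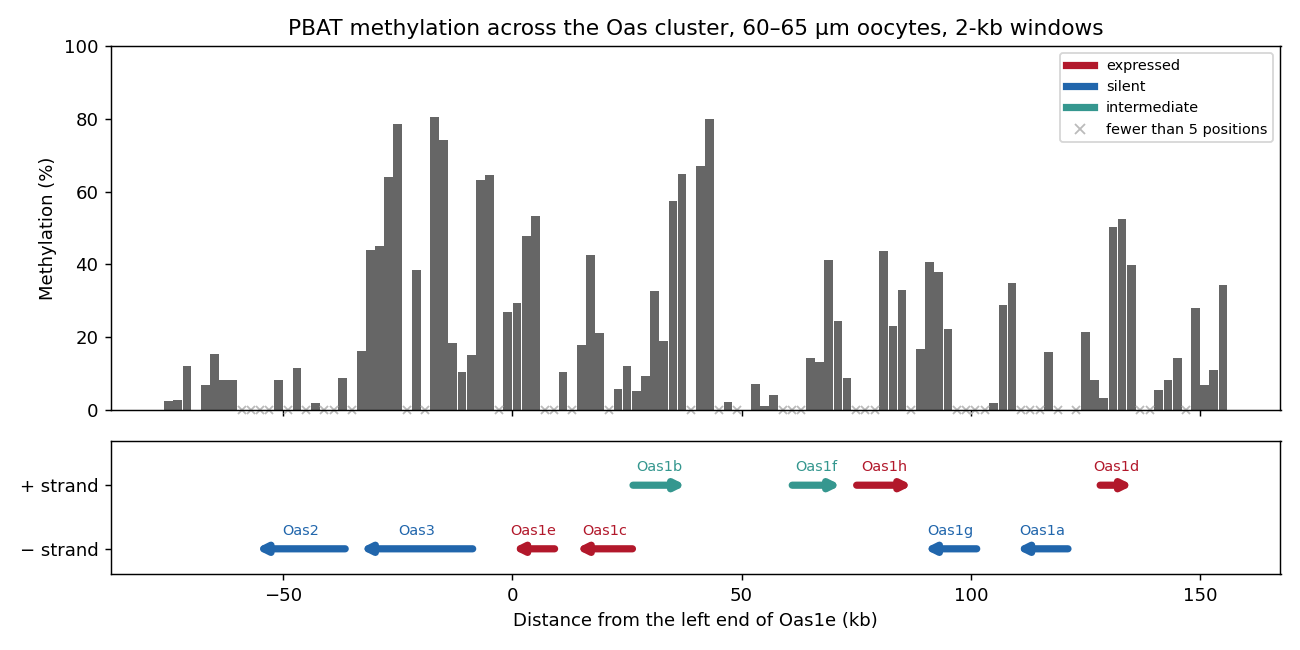
Mean methylation of 2-kb windows across the run of Oas genes and 20 kb on each side in the PBAT library (upper panel, crosses for windows with fewer than 5 positions) above the genes as arrows on their strands, coloured by class (lower panel). The highest windows of the expressed members reach 53.3% (Oas1e), 52.4% (Oas1d), 43.8% (Oas1h) and 42.5% (Oas1c) and that of the silent Oas1g 40.6%, whereas windows over Oas3, over the 3′ part of Oas1b and beyond its 3′ end are higher, up to 80.6%, 64.8% and 80%.

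Along the genes the methylation was uneven. Pooled over all covered cytosines, the regions 1 kb to either side of the start had 5.26% (Oas1e, 38 calls), 3.28% (Oas1h, 61 calls), 0% of 63 calls (Oas1d), 13.6% (Oas1c, 228 calls), 6.06% (Oas1g, 66 calls) and 0% of 86 calls (Oas1a). For Oas1c this region is shared with the start of Oas1b, and its 17 positions with at least 5 reads gave a lower mean of 7.35% (pooled 6.90%, interval 3.54% to 13%). The upper limits that go with these counts were 17.3% for Oas1e, 11.2% for Oas1h, 5.75% for Oas1d and 4.28% for Oas1a. At this depth no difference between the starts of expressed and silent members was detectable, except that Oas1c (interval 9.75% to 18.7%) stood above Oas1a over all covered cytosines, but not above Oas1g (2.38% to 14.6%). At positions with at least 5 reads the interval of Oas1c overlapped that of Oas1a (0% to 9.64%) as well.

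Each gene body was cut into a 5′, a middle and a 3′ part of equal length. In Oas1d these parts had 9.09%, 51.1% and 40.5%. Oas1e had 26.5%, 47.7% and 34.9%, and Oas1h had 23.1%, 39.2% and 32.1%. Oas1c had 9.57%, 17.9% and 35.4%. All 4 had their lowest value at the 5′ end. The intervals of the 5′ and the highest part did not overlap in any of the 4, while those of the 5′ and 3′ parts overlapped in Oas1e (17.4% to 38.0% and 28.5% to 41.8%) and Oas1h (16.9% to 30.6% and 27.0% to 37.6%). Over all expressed genes, the medians of means over positions were 13.8%, 55.8% and 54.5% in this order.

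The silent Oas1g had a like slope, with 10.3%, 26.8% and 39.5%. Its 3′ part, which faces Oas1h, lay within the range of the 3′ parts of the expressed members (32.1% to 40.5%). Oas1a had 3.61%, 13.5% and 7.14%, and over all silent genes the medians were 6.43%, 8.88% and 9.36%. In Oas1g, exons had 42.8% over 14 positions and introns 20.1% over 15. Exons and introns were closer in Oas1h (32.3% and 33.6%), Oas1e (46.2% and 40.1%) and Oas1d (40.3% and 45.3%), and Oas1c had 29.0% and 19.5%.

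**Figure D4:**
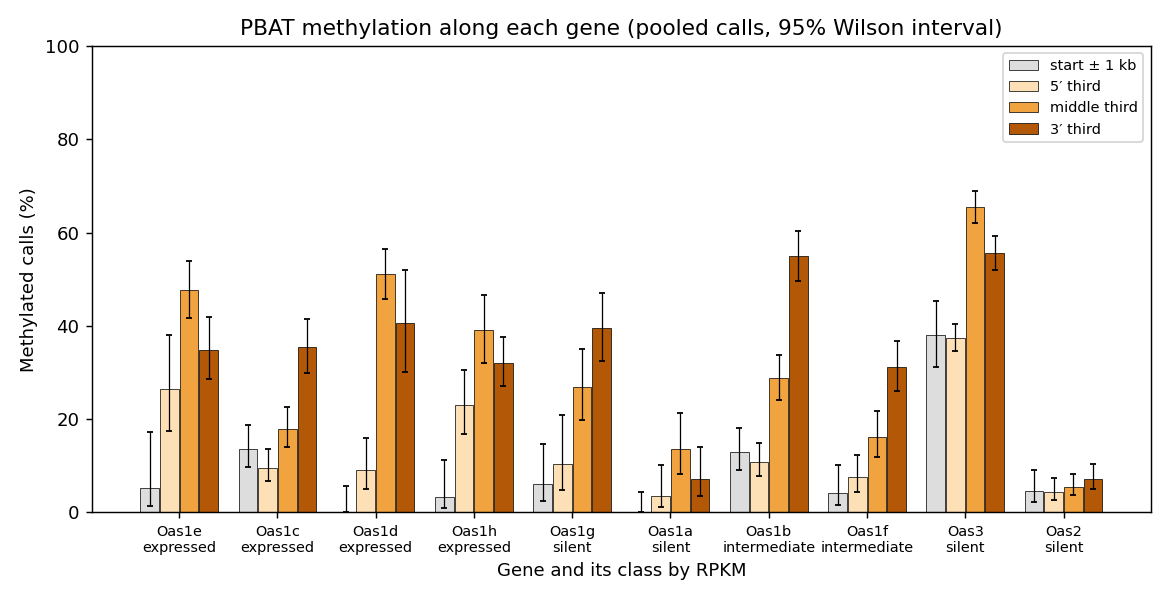
Percent of methylated calls, pooled over all covered cytosines, at the start and in the 5′, middle and 3′ parts of the 10 genes of the run, ordered by gene and labelled by class, with 95% Wilson intervals of counting error. Oas1e, Oas1c, Oas1d, Oas1h and the silent Oas1g are higher in the middle and 3′ parts than at the start, Oas1c by less in the middle part (17.9% against 13.6%), and Oas1a stays at 13.5% or below.

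Between the genes the levels were mixed. The mean was 11.1% between Oas1e and Oas1c, 8.87% between Oas1f and Oas1h, 12.3% between Oas1a and Oas1d, 22.9% between Oas1g and Oas1a, 24.2% between Oas1b and Oas1f and 52.5% between Oas3 and Oas1e. In the 2 kb beyond the 3′ end of Oas1b it was 84.1% over 5 positions. Only 2 positions with at least 5 reads lay between the 3′ ends of Oas1h and Oas1g, too few for a mean, and all 48 calls of that gap gave 20.8% (95% interval 11.7% to 34.3%). An antisense gene of GENCODE M21, Gm43069 (chr5:120777796-120805623, plus strand), runs across Oas1e and the 3′ part of Oas1c and is no row of the table. Whether strand was used when the table was made is not stated, and overlap of exons was not examined. Reads of Gm43069 may therefore be among those counted for Oas1e and Oas1c.

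RRBS, which samples CpG-rich sequence, measured 1 place that bears on a member through all 3 size classes. At the paired starts of Oas1c and Oas1b, 7 positions had at least 5 reads in each of the 6 libraries. Their mean was 0.356% (A) and 2.38% (B) at 40–45 µm, 0% and 0.484% at 50–55 µm and 1.9% and 0.181% at 60–65 µm. The classes overlapped and none was above 2.38%. Of these 7, 5 lie in the 120 bp between the genes, next to the response element printed above. No position of Oas1e, Oas1h, Oas1d, Oas1g or Oas1a reached 5 reads in an RRBS library, so the course of their body methylation was not measured here.

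The 3′ part of the neighbour Oas1b was more methylated in larger oocytes. There, 4 positions had a mean of 1.00% (A) and 4.32% (B) at 40–45 µm, 36.8% and 26.1% at 50–55 µm and 67.6% and 68.2% at 60–65 µm. The 3 classes did not overlap, and the differences were not tested. In this part of Oas1b the PBAT library had 59.3% over 35 positions.

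**Figure D5:**
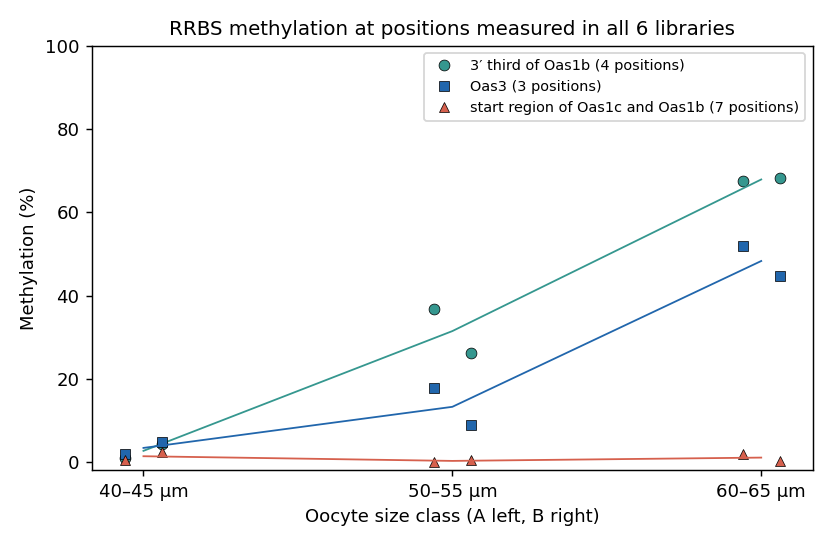
Mean RRBS methylation in libraries A and B of 3 size classes at positions with at least 5 reads in all 6 libraries, with lines through the class means. The 7 positions at the starts of Oas1c and Oas1b stay at or below 2.38%, whereas 4 positions in the 3′ part of Oas1b reach 67.6% and 68.2%, and 3 positions in Oas3 reach 52.0% and 44.6%.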

How the data were processed

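The authors deposited 1 RNA table of RPKM values per reference gene and library. Per their methods, reads of strand-specific libraries were trimmed with Trim Galore 0.2.8 and aligned to GRCm38 with TopHat 2.0.9, keeping 1 alignment per read. The program behind the table, and how it counted, are not given in the sources used here. For RRBS and PBAT the authors deposited, for each covered CpG cytosine and with strands apart, the percent methylated and the counts of methylated and unmethylated calls (Bismark 0.14.0 and 0.10.0). PBAT duplicates were removed by the authors. No removal is stated for RRBS, so calls may overstate molecules.

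Here RPKM were scaled by a trimmed mean (factors 0.944 to 1.06), filtered at 0.5 RPKM in at least 2 of 8 libraries, and fitted as log2(RPKM + 0.1) with limma 3.58.1 (R 4.3.3, variance trend, 1 mean per size class, threshold 0.05), tested on simulated data. GV oocytes were not fitted. Counted reads were recovered with GENCODE M21 exon lengths and library totals estimated from single-exon genes. Only 52.4% to 56.7% of genes under 1000 reads came out whole, and 41.5% to 45.6% of such single-exon genes, so no count test was made. The recovered totals were 99368515 to 198296281 per column. Methylation means used at least 5 reads per position and 5 positions per region (Python 3.11.15, statsmodels 0.14.6). Coding sequences were aligned with Biopython 1.88. The members, the gene lists and the rules for naming genes (all 6 members, fixed lists of neighbours, pathway and interferon genes, and the 3 genes most alike) were chosen with earlier results of these data known. Alternatives comprised other pseudocounts, filters, scalings, coverage minimums, a replicate block and the omission of each library. Some listed genes are not reported here.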

Additional observations from a re-analysis of the deposited data

How the results depend on the processing

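Omission of 1 library at a time moved the number of members called from 10–30 to 40–45 µm between 0 and 1 (0 without 40–45 µm A) and from 10–30 to 60–65 µm between 1 and 2, with the log2 change of Oas1h between 0.28 and 0.62. Without a filter on low values (20052 genes tested), 0 and 1 members were called in these comparisons, with the log2 changes as before. Their adjusted p with limma was then 0.0781 for Oas1e (log2 change 0.52, 10–30 to 40–45 µm) and 0.0514 for Oas1h (log2 change 0.44, 10–30 to 60–65 µm). Other pseudocounts, scalings and the fit without a variance trend changed no call of a member. In the other steps 0 members were called under any of the 15 alternatives. The share of all genes called was 2.88% (no filter) to 18.5% (replicate block) from 40–45 to 50–55 µm, against 9.47%, and 13.2% (no filter) to 32.1% (replicate block) from 10–30 to 40–45 µm, against 23.6%, and leaving out 1 library gave 0% to 16% and 9.79% to 28.0%. Oas1c and Oas1d stayed uncalled, and Oas1e stayed called over the whole range, under all 15.

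With the replicate block, the letters A and B were entered as pairs. It called 1, 0, 0 and 2 members, as without it, but 3378, 1951, 237 and 7294 genes in all in place of 2481, 996, 0 and 6632. Deviations of same-lettered libraries correlated among the 3 smaller classes (r = 0.600, 0.594 and 0.671) but not with 60–65 µm (-0.222, -0.0228 and 0.114), and since not every pair was over 0.1 the letters were not taken to pair samples.

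With thresholds of 2 and 0.1 RPKM, 1 member in place of 2 counted as silent, since Oas1g reached 0.167. PBAT body methylation of Oas1e was 33.9%, 39.8% and 53.3% at minimums of 1, 3 and 10 reads, 40.2% from pooled calls and 39.6% with both strands summed. With at least 1 read, Oas1c had 18.6% and Oas1d 35.3%, and with at least 10 reads, Oas1d had 53.1% and Oas1h 21.4%. A value for Oas1a and Oas1g was not obtained at 10 reads, with fewer than 5 positions left. In each of the other 5 alternatives Oas1a was lowest of the 6 members and Oas1g stood above Oas1c. The cause of these shifts was not tested.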

Other observations

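Oas3, the neighbour to the left of Oas1e, had 0.156 to 0.306 RPKM in the 8 libraries and 0.602 in GV oocytes, and its body had 51.8% methylation over 219 positions in the PBAT library. That was above 96.1% of the other silent genes. At its start the pooled calls gave 38.0% (95% Wilson interval 31.2% to 45.3%), higher than at the start of any Oas1 gene. In RRBS, 3 positions of Oas3 had means of 1.86% and 4.87% at 40–45 µm, 17.7% and 8.79% at 50–55 µm and 52.0% and 44.6% at 60–65 µm, with no overlap of the classes. Over all Oas3 positions with at least 5 reads in a library, 4 to 13 of them, the means were 1.57% and 3.46%, 6.89% and 31.6%, and 16.8% and 18.8%, and the 2 larger classes overlapped. The 8650 bp between Oas3 and Oas1e had 52.5% over 29 positions, and the antisense gene Gm43069 starts there.

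Oas2, at the left end of the run, was listed at 0 in 7 of the 8 libraries and had a body methylation of 6.11% over 66 positions. Oas1f and Oas1b, which rose with size, had 19.9% over 48 and 34.5% over 91 positions. Rph3a, a neuronal gene to the right of Oas1d, rose 3.57-fold between 10–30 and 60–65 µm (log2 change 1.84, SE 0.16, adjusted p = 3.5e-05 with limma), from 0.361 and 0.515 to 1.95 and 1.63 RPKM.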
